A study of Mus musculus with 21 samples.

Results

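The sorted immature olfactory sensory neurons (OSN) of mice carrying the gg8tTA driver alone were compared with the mCherry-negative cells of the same mice. The comparison held 4 of the 21 samples of the series, chosen by genotype and sorted fraction: 2 OSN samples and 2 mCherry-negative samples, 1 of each from mouse 1 and from mouse 2. All 4 came from the main olfactory epithelium of mice with the genotype gg8tTA and tetO-Mex3a_HyperTRIBE_mCherry, so the mCherry-negative cells carried the construct in their genome too. The labels give no strain, sex or age and no treatment, and no sample with a control construct entered the comparison. HyperTRIBE joins an RNA-editing domain to an RNA-binding protein, here Mex3a, so that the RNAs it binds collect point mutations; only gene levels were analysed here. gg8tTA is a tetracycline transactivator under control of the gene of the G protein subunit Gng8, which immature OSN express. The labels call this construct MexHT. Samples of MexHT mice that carried OMPtTA as well (6 of OSN, 5 of mCherry-negative cells) are cited at the end, with values only. Wherever a pair of values is given below, the value of mouse 1 comes first.

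OSN are made throughout life in the olfactory epithelium. Basal stem cells give rise to dividing progenitors that express Neurog1 and then Neurod1, become immature OSN that extend axons and express Gap43 and Gng8, and mature into OSN that express Omp, the cilia-bound cAMP transduction proteins and 1 odorant receptor each. Mex3a is an RNA-binding protein with an E3 ubiquitin ligase domain, known from stem and progenitor cells.

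Since Gng8 gave its control region to the driver and the transduction genes of mature OSN fell together, the RefSeq promoter windows (GRCm38.p6, 250 bases before to 50 after the annotated start) of Gng8 and of a pair of mature OSN genes are shown. Capitals mark the core letters CCCNNGGG of the Ebf (Olf1/Ebf) binding motif, which reads the same on both strands.
Gng8 at chr7:16891536-16891835, plus strand: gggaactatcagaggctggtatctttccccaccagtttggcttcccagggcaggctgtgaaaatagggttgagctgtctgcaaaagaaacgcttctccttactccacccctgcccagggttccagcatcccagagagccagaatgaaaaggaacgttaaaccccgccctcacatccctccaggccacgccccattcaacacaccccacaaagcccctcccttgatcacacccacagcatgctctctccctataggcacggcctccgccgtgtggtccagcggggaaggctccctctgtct
Cnga2 at chrX:71991599-71991898, plus strand: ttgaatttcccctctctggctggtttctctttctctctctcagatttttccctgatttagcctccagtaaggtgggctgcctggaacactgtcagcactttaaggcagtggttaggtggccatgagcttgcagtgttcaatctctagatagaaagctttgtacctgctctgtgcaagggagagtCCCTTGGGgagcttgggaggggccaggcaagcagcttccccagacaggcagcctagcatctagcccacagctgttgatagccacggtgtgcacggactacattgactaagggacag
Gng13 at chr17:25716922-25717221, plus strand: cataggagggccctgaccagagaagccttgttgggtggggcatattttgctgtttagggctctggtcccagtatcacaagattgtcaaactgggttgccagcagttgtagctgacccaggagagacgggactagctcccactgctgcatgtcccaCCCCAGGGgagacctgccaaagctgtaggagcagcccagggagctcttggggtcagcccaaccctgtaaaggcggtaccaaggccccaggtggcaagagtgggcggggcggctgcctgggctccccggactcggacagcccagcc
Cnga2 and Gng13 each held 1 core in the window shown, a further Gng13 window held 0, and these letters were not in the Gng8 window. Of 17 mature OSN markers with a window, 10 held the core in at least 1 window (Ano2, Cnga2, Cnga4, Cngb1, Gng13, Kirrel2, Pde4a, Rtp2, Slc24a4 and Umodl1), or 58.8%, and of 11 immature OSN markers 3 did (Dbn1, Dpysl5 and Mllt11). Over the 12038 tested genes with a window the share was 20.2%. Counted by window, the core was in 38.5% of the 26 windows of mature markers, in 17.5% of the 15121 windows of tested genes and in 13.7% of all 32851 windows. A longer form of the motif was searched as well. It was in 0 of the 26 windows of mature markers and in 1 of the 16 of immature markers. Of the windows of tested genes 1.10% held this longer form, and of all windows 0.904%. At shares this low, 26 or 16 windows are too few to tell a list from the background. Omp, Gnal, Rtp1 and Gap43 were among the markers that matched no window. A match is a description of letters and not a measured binding site.

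The recovered depth was 11469676 and 15056782 reads in the OSN samples and 11626913 and 10134715 in the mCherry-negative samples, where reads were recovered from the steps of the deposited TPM values (transcripts scaled to a fixed sum per sample, a level per gene length). Genes at 1 TPM or more numbered 16398 and 13917 in OSN of mouse 1 and mouse 2, and 16533 and 16092 in mCherry-negative cells. In a principal component analysis of log2(TPM + 1), the first component (69.6% of variance) parted the fractions, and the second (22.7%) parted the OSN samples from each other. Of 16490 tested genes, 4218 (25.6%) lay at least 2-fold apart between the 2 OSN samples and 1412 (8.56%) between the 2 mCherry-negative samples. The OSN samples of the 2 mice therefore differed more than the control samples did, in these counts.

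Mex3a, the gene carried by the construct, was above its controls in both OSN samples. It had 460.3 and 1632 TPM in OSN of mouse 1 and mouse 2 and 211 and 101 TPM in mCherry-negative cells. OSN of mouse 2 had 3.54 times the level of OSN of mouse 1, and the groups did not overlap. The difference on the log2(TPM + 1) scale was 2.56 ± 0.63 (SE, n = 2 and 2), with a limma adjusted p (Benjamini-Hochberg over all 16490 genes tested) of 0.0571, or 0.0399 with the mouse as a block; the exact two-sided permutation p of the level was 0.333, the smallest that 2 against 2 samples can give. Per mouse the level was 2.18-fold and 16.1-fold higher. The files do not part the Mex3a of the construct from the mouse's own Mex3a, which lies at chr3:88532395-88541396 (GRCm38, GENCODE M21). The row of Mir1905, whose gene overlaps Mex3a on the other strand, had 44.8 and 115 TPM in OSN and 6.29 and 3.38 in controls, from 13 and 46 reads in OSN and 2 and 1 in controls. Whether the counting used strand is not given in the sources used here, so values of genes that overlap another gene are uncertain. Among genes named below these include Adcy3 (with Cenpo), Gng13 (Chtf18), Gnal (Mppe1), Plxna4 (Plxna4os1), Kirrel3 (Kirrel3os), Ccna2 (Exosc9), Nusap1 (Oip5), Unc13a (Colgalt1) and Mcm7 (Ap4m1).

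Adar, the adenosine deaminase that edits double-stranded RNA, rose in OSN. It had 498 and 1418 TPM in OSN and 50.5 and 42 in mCherry-negative cells, 9.86-fold and 33.7-fold higher in mouse 1 and mouse 2 (log2 difference 4.16 ± 0.49, adjusted p = 0.0159). As with Mex3a, the higher OSN value was that of mouse 2. The labels do not say which enzyme gave the editing domain, and the Adar gene (chr3:89715022-89753446) overlaps Chrnb2 on the other strand. Adarb1, a related deaminase, had 14.9 and 14.7 TPM in OSN and 16.8 and 17.5 in controls, and did not pass the test (adjusted p = 0.767). The other Mex3 genes did not pass either, though each was highest in OSN of mouse 2: Mex3b had 112 and 389 against 73.6 and 43.2 TPM, Mex3c 129 and 246 against 121 and 134, and Mex3d 84.4 and 233 against 75.4 and 55.4. Adarb2 was under the level filter.

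Among genes called, more were lower in OSN than higher. At an adjusted p under 0.05 (limma, Benjamini-Hochberg over all 16490 genes), 185 genes rose (1.12%) and 1187 fell (7.2%) in OSN against mCherry-negative cells. By size alone, 707 genes were at least 2-fold higher in OSN of both mice (4.29%) and 2523 at least 2-fold lower (15.3%), with differences on the log2(TPM + 1) scale. At 8-fold in both mice there were 11 genes higher and 275 lower. Without a threshold the order was the other way, with 5520 genes above both controls in both OSN samples and 4973 below, and the median difference over all genes was 0.09. The counts depended on the settings: 67 genes were called higher and 579 lower with a pseudocount of 0.1, and 98 higher with voom on the recovered reads. Odorant receptors made up 305 of the 1187 genes that fell, and 861 of the 16490 tested. Gene rows of microRNAs and small nucleolar RNAs made up 53 of the 185 that rose, against 3.60% of the genes tested. Of all genes called, 51 that rose and 10 that fell had 10 reads or fewer in every sample, and 57 of these 61 were small RNA rows. Without any 1 of OSN replicate 1, OSN replicate 2, mCherry-negative replicate 1 or mCherry-negative replicate 2, the limma fit called 0 genes (2004 to 6665 at an unadjusted p under 0.05, against 5111 with all), for every call named below. Such a fit keeps 1 residual degree of freedom, and takes the lone sample of a group to vary like the other group.

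The 2 mice agreed on direction for 12116 of the genes (73.5%), and the differences in mouse 1 and mouse 2 correlated over genes with r = 0.65, a description, since genes share the same 4 samples. Of genes at least 4-fold lower in mouse 1, 94.9% were lower in mouse 2 as well, while of genes at least 4-fold higher in mouse 1, 60.8% were higher in mouse 2. Taken from mouse 2, the shares were 91.1% and 85.1%. A further 131 genes were at least 2-fold higher in OSN of mouse 1 and at least 2-fold lower in mouse 2, and 76 the reverse.

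**Figure D1:**
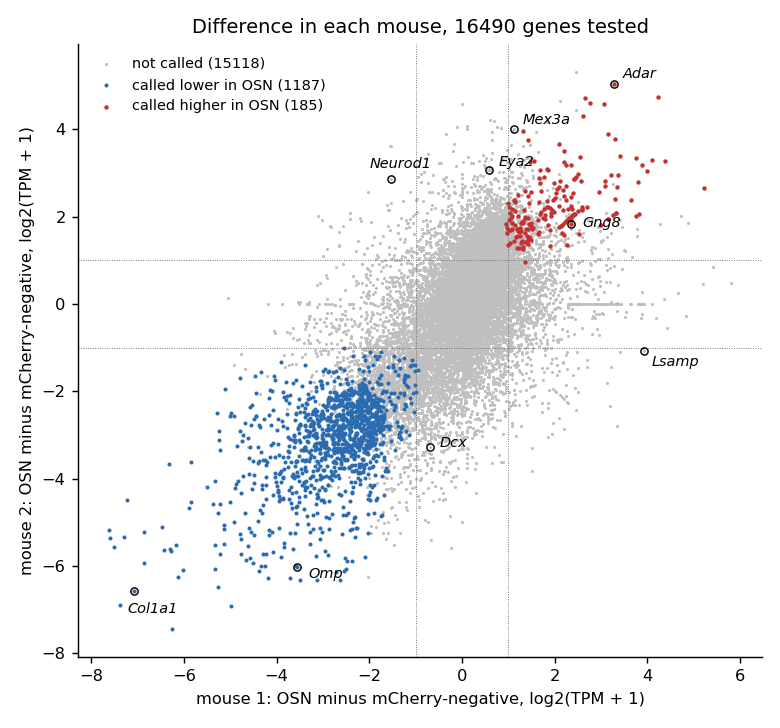
Each point is 1 of 16490 genes, with the OSN minus mCherry-negative difference in log2(TPM + 1) of mouse 1 on the x axis and of mouse 2 on the y axis; red and blue are the 185 genes called higher and the 1187 called lower, and dotted lines mark 2-fold. The called genes lie in the corners where both mice agree, which a call with 2 samples a group all but requires. Neurod1, Lsamp and Dcx lie away from the diagonal.

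Of 16 immature OSN markers, none fell (background 7.2%) and 1 rose (background 1.12%), with a median log2 difference of 0.14, against 0.09 over all genes. The 1 was Gng8, the driver's own gene, with 1256 and 664 TPM in OSN and 245 and 185 TPM in mCherry-negative cells (log2 difference 2.10 ± 0.38, adjusted p = 0.03). Unlike Mex3a, Gng8 was higher in OSN of mouse 1 than of mouse 2. Gap43, a growth cone protein, had 672 and 93.8 TPM in OSN and 614 and 498 in controls, level with them in mouse 1 and below them in mouse 2 (adjusted p = 0.372). Dcx, a microtubule protein of migrating neurons, had 133 and 16.8 TPM in OSN and 214 and 172 in controls, so that OSN of mouse 2 held the lowest value by 7.91-fold against OSN of mouse 1. Some members differed more in mouse 2 than in mouse 1. Tubb3, neuronal beta-tubulin, had 934 and 1833 TPM in OSN and 831 and 456 in controls; Elavl4, an RNA-binding protein of young neurons, 196 and 379 in OSN and 173 and 76.2 in controls. Stmn4, a microtubule regulator, had 214 and 127 TPM in OSN and 276 and 574 in controls. The growth cone genes Dpysl5 (506 and 803 against 342 and 243 TPM, adjusted p = 0.0855) and Dbn1 (526 and 689 against 325 and 211 TPM, adjusted p = 0.0696) were above both controls in both OSN samples without passing. The summed TPM of the 16 genes was 7701 and 7085 in OSN, and 6089 and 4994 in mCherry-negative cells. The mCherry-negative cells thus carried the immature markers too.

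Mature OSN genes were lower in the sorted OSN. Of 20 markers, 14 fell and none rose, where 7.2% of all genes fell; 17 were at least 2-fold lower in both mice. The median log2 difference was -4.08, at -2.79 in mouse 1 and -5.20 in mouse 2. Omp, the olfactory marker protein, had 164 and 53.8 TPM in OSN and 1937 and 3561 TPM in mCherry-negative cells (log2 difference -4.79 ± 0.56, adjusted p = 0.0157). The level was 11.8-fold and 66.2-fold lower in mouse 1 and mouse 2. The Omp gene lies within Capn5 on the same strand. Stoml3, a stomatin-like protein of OSN cilia, fell from 1902 and 3903 TPM in controls to 48.7 and 43 TPM in OSN, and S100a5, a calcium-binding protein of active OSN, from 1619 and 2619 to 39.2 and 56 TPM; both had an adjusted p of 0.00532. Umodl1 fell to 22.7 and 23.9 TPM from 557 and 936 TPM. Those 3 genes had like levels in OSN of both mice.

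The cAMP transduction chain fell along most of its length. Gnal, the G protein alpha subunit that couples receptors to the cyclase, had 48.9 and 21.4 TPM in OSN and 953 and 1434 in controls (log2 difference -5.13 ± 0.44). Gng13, a gamma subunit of that chain, had 126 and 40.1 against 932 and 1474 TPM, and Adcy3, the adenylate cyclase, 44.8 and 42.9 against 443 and 873 TPM. OSN of both mice were below both controls for each of these. The cAMP-gated channel subunits Cnga2 (53.5 and 8.7 against 474 and 779 TPM) and Cnga4 (34.9 and 5.54 against 235 and 459.6 TPM) fell, and Cngb1 (32 and 2.09 against 133 and 236 TPM) had an adjusted p of 0.057, or 0.0274 with the mouse as a block. Ano2, the calcium-gated chloride channel, and Slc24a4, the sodium-calcium exchanger that ends the response, fell too, with log2 differences of -3.94 ± 0.89 and -4.71 ± 0.52; the call of Ano2 ended with a pseudocount of 0.1. In the channel genes OSN of mouse 2 was lower than OSN of mouse 1, by 6.15-fold for Cnga2 and 15.3-fold for Cngb1. Pde1c, a phosphodiesterase, and Ric8b, a chaperone of Gnal, fell by 2.14 and 2.20 on the log2 scale.

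The receptor-transporting proteins Rtp1 and Rtp2, which bring odorant receptors to the surface, did not pass the unpaired test. Rtp1 had 132 and 16.5 TPM in OSN and 476 and 599.7 in controls (adjusted p = 0.0565, with the block 0.0232), and Rtp2 99.9 and 12.9 in OSN and 232 and 324 in controls (adjusted p = 0.0825, with the block 0.04). The mice differed in size: Rtp1 was 3.62-fold and 36.4-fold lower and Rtp2 2.32-fold and 25.1-fold lower in mouse 1 and mouse 2. Pde4a and Cfap69, a cilium protein, likewise passed only with the block (adjusted p = 0.0453 and 0.0468). Slc17a6, the vesicular glutamate transporter, had 108 and 74.8 TPM in OSN and 121 and 159.7 in controls (adjusted p = 0.233).

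**Figure D2:**
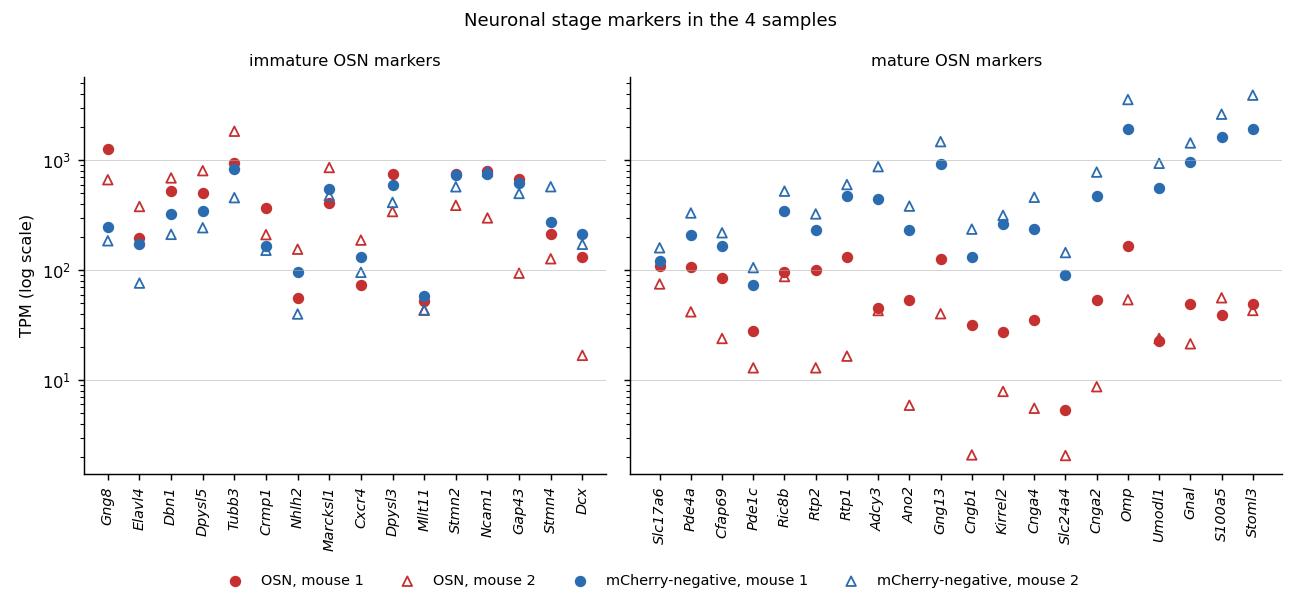
TPM on a log axis of 16 immature and 20 mature OSN markers in the 4 samples, red for OSN and blue for mCherry-negative cells, circles for mouse 1 and triangles for mouse 2; genes are ordered by their mean difference. On the left only Gng8 passed the test, while on the right the red symbols lie below the blue for all 20 genes.

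Odorant receptors were low in the sorted OSN. Their summed TPM over 1208 genes was 904 and 79.3 in OSN of mouse 1 and mouse 2, and 4443 and 4996 in mCherry-negative cells. Both OSN samples lay below both controls, and OSN of mouse 2 was the lowest by far (exact two-sided permutation p = 0.333, the smallest possible here). Receptors at 1 TPM or more numbered 165 and 4 in OSN, and 1006 and 1014 in controls. Among the 861 receptors tested, 305 fell and none rose (background 7.2% lower), and 669 were at least 2-fold lower in both mice (background 15.3%). In both OSN samples 819 were below both controls, as were 4973 of all 16490 genes tested. The median log2 difference was -1.90. With the receptors at 3 reads or fewer in both OSN samples set to 3 reads, it was -2.15. The value at 3 reads is a ratio of TPM without the 1 added before the logarithm, so these medians are on unlike scales and cannot be compared. The floor of 3 reads held for 307 of the tested receptors and 132 of the 305 that fell. Most of the 861 passed the filter of 1 TPM through the controls, where they were high, so these counts and medians describe the receptors and do not support a difference. Near-identical receptor genes can share reads, so values of single receptors are uncertain.

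A few receptors of OSN of mouse 1 were above the controls while most were below. Olfr536, the highest receptor of both controls, had 41.1 and 47.4 TPM there and 1.45 and 0.287 TPM in OSN (log2 difference -4.67 ± 0.55, adjusted p = 0.0157). Olfr672, with 22.3 and 22.6 TPM in controls, and Olfr17, with 23.1 and 22.6 TPM, fell likewise. In contrast, Olfr464 had 48.2 and 1.24 TPM in OSN and 9.67 and 15.3 TPM in controls, the highest receptor in either OSN sample. Olfr877 had 32.2 and 0.328 TPM in OSN and 6.05 and 3.84 TPM in controls, with a log2 difference of 0.18 that turned to -0.85 with voom on the recovered reads and to -0.41 with a pseudocount of 0.1. In all, 20 of the tested receptors were above both controls in OSN of mouse 1, and 0 were in OSN of mouse 2. The receptors of mouse 1 thus spread over a wider range than those of mouse 2. These receptors were picked after their values were seen.

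**Figure D3:**
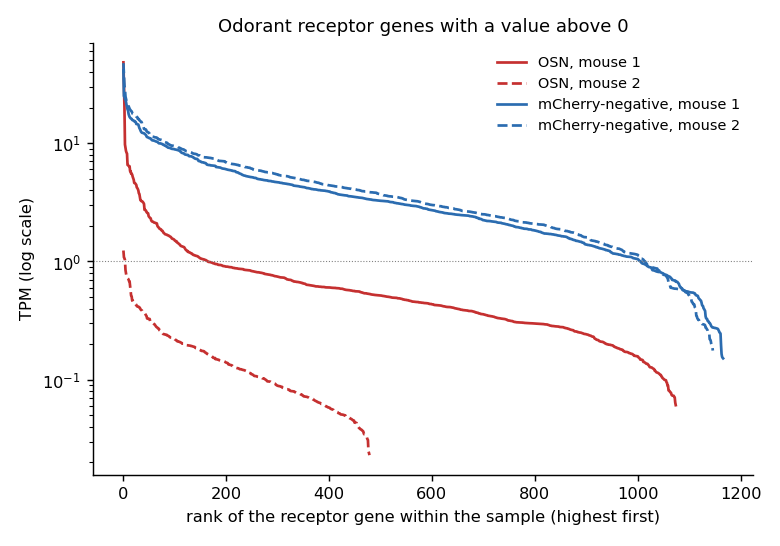
Odorant receptor genes ranked within each sample (x axis) by TPM on a log axis, for receptors with a value above 0; the dotted line marks 1 TPM. The curves of the mCherry-negative samples lie together and cross 1 TPM near rank 1000, while OSN of mouse 1 crosses after 165 receptors and OSN of mouse 2 after 4.

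Progenitor genes lay on opposite sides of their controls in the 2 mice. Of 11 genes none passed; 1 was above the control of its mouse in OSN of mouse 1 and 8 were in OSN of mouse 2 (median log2 difference -1.53 and 0.77). Neurod1, a transcription factor of late progenitors and newborn neurons, had 79.9 and 652 TPM in OSN and 232 and 88.9 in mCherry-negative cells. It was thus lowest in OSN of mouse 1 and highest in OSN of mouse 2, with an adjusted p of 0.654 for the mean difference. Neurog1, its upstream activator, had 21.9 and 90.1 TPM in OSN and 73.1 and 30.1 in controls. Sox2, of stem and supporting cells, had 4.71 and 48.2 TPM in OSN and 44.7 and 22 in controls. In Neurog1 and Sox2 the 2 OSN values were the lowest and the highest of the 4 samples. Eya2, a coactivator of early neurogenesis, was above both controls in both OSN samples, with 189.7 and 644 against 125 and 75.3 TPM (adjusted p = 0.097). Tead2 was below both controls in OSN of both mice (3.53 and 16 against 60.9 and 25.3 TPM, adjusted p = 0.11).

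Cell cycle genes were lower in OSN in part. Of 26 genes 8 fell (Mki67, Top2a, Ccnb2, Ccna2, Pcna, Aurkb, Nusap1 and Rrm2) and none rose, where 7.2% of all genes fell, and the median log2 difference was -2.94 in mouse 1 and -0.73 in mouse 2. Mki67, the proliferation marker, had 13.4 and 48.4 TPM in OSN and 397 and 159 in controls (log2 difference -3.24 ± 0.67, adjusted p = 0.0397). With a pseudocount of 0.1 the calls of Mki67, Top2a, Ccnb2, Pcna and Aurkb ended. Rrm2, a subunit of ribonucleotide reductase, had 3.63 and 8.94 against 100.2 and 58.3 TPM, and Ccna2, an S and G2 phase cyclin, 5.62 and 9.04 against 112 and 52.7 TPM. Both OSN samples lay below both controls, and OSN of mouse 2 above OSN of mouse 1. The licensing genes Mcm2 (70 and 162 against 99.4 and 58.3 TPM) and Mcm7 (63.3 and 179 against 132 and 78.3 TPM) were below their control in mouse 1 and above it in mouse 2.

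**Figure D4:**
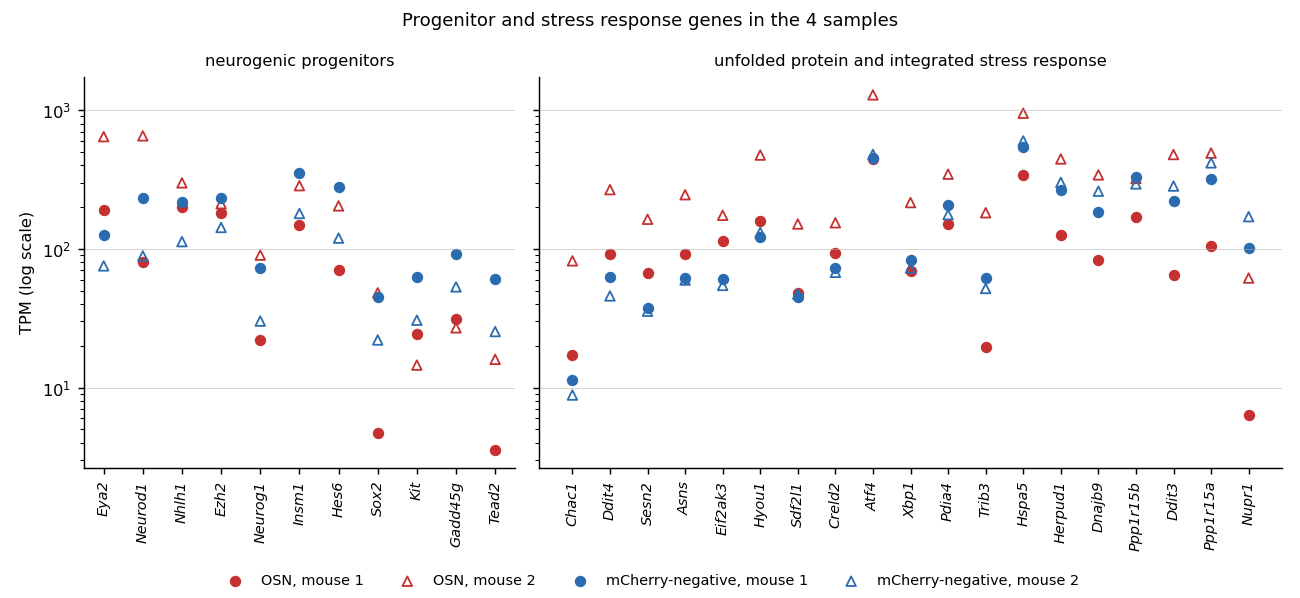
TPM on a log axis of 11 progenitor genes and 19 genes of the unfolded protein and integrated stress response in the 4 samples, with colours and symbols as for the stage markers. OSN of mouse 2 (red triangles) are above OSN of mouse 1 (red circles) for 9 of the 11 progenitor genes and for all 19 stress genes.

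Stress response genes differed between OSN of the 2 mice, and none passed the test. Of 19 genes of the unfolded protein and integrated stress response, 18 were higher in OSN of mouse 2 than in its control and 8 in mouse 1 (median log2 difference 1.42 and -0.26). Trib3, a target of Atf4, had 19.5 and 182 TPM in OSN and 61.3 and 51.8 in controls. Chac1, another Atf4 target, had 17.1 and 81.9 against 11.3 and 8.83 TPM, and Ddit3 (Chop) 64.5 and 478 against 220.4 and 283 TPM. Atf4 itself had 442 and 1286 TPM in OSN and 452 and 479 in controls, so 3 samples were alike and OSN of mouse 2 stood above them. Nupr1 was below both controls in both mice (6.31 and 61.6 against 102 and 171 TPM) and passed with the block alone (adjusted p = 0.03, unpaired 0.118). Of 35 tested genes of ER translocation and vesicle coats none passed, and the median was 0.18. OSN of mouse 2, which had the higher stress gene values, also had the higher Mex3a, Adar and progenitor gene values, and the part of one in the other was not tested.

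Regulators of OSN fate were present in both fractions. None of 15 transcription regulators passed the test, with a median log2 difference of 0.52. Lhx2, needed for OSN identity and receptor choice, had 765 and 953 TPM in OSN and 579 and 423 in controls, and Emx2 540.4 and 503 against 295 and 208 TPM (adjusted p = 0.0692). Ebf1 had 473 and 225 against 386 and 343 TPM. Ebf4, another Ebf factor, had 225 and 15.7 TPM in OSN and 309 and 312 in controls, with OSN of mouse 2 apart from the other 3 samples (adjusted p = 0.189).

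Of 20 genes of axon guidance and sorting 1 rose (background 1.12%) and 4 fell (7 with the block, background 7.2%), and 9 were at least 2-fold lower in both mice (background 15.3%). Kirrel2, a homophilic adhesion protein whose level follows activity, had 27.5 and 7.88 TPM in OSN and 264 and 315 in controls (log2 difference -4.19 ± 0.55, adjusted p = 0.02); it was also on the mature list. Kirrel3 had 8.34 and 1.21 against 36.8 and 61 TPM, Plxna4, a semaphorin coreceptor, 23.5 and 5.9 against 139 and 197 TPM, and Pcdh17 15.6 and 5.05 against 75.3 and 78.9 TPM. All 4 were lowest in OSN of mouse 2, and the call of Kirrel3 ended with a pseudocount of 0.1. The 1 that rose was Sema3a, a repulsive ligand, with 66 and 115 TPM in OSN and 29.3 and 21.5 in controls (log2 difference 1.76 ± 0.40, adjusted p = 0.0467), and it was not called with a pseudocount of 0.1 or with median-of-ratios scaling. Cntn4, Ncam2 and Pcdh10 passed with the block (adjusted p = 0.0216, 0.03 and 0.0441) and not without (0.0505, 0.0826 and 0.0857).

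Of 17 genes of synaptic vesicle release 2 rose (background 1.12%) and none fell. Stx1a, a SNARE protein of the plasma membrane, had 532 and 361 TPM in OSN and 188 and 131 in controls (log2 difference 1.48 ± 0.33, adjusted p = 0.0451). Unc13a, the priming factor, had 157 and 126 against 63.2 and 45.8 TPM (adjusted p = 0.048). For both genes the OSN samples lay above the controls in each mouse, but neither was called with a pseudocount of 0.1. Snap25, another SNARE protein, had 182 and 37.6 TPM in OSN and 192 and 271 in controls, at the control level in mouse 1 and below it in mouse 2. Over the list, 12 genes were above the control of their mouse in OSN of mouse 1 and 4 were in OSN of mouse 2. The 24 genes of intraflagellar transport and the BBSome, which build cilia, held no call, with a median log2 difference of -0.22. That median was 0.30 in mouse 1 and -0.55 in mouse 2, with 17 and 7 genes above the control of their mouse.

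Among RNA-binding proteins of neurons 1 of 16 tested rose (background 1.12%). With the block 3 did, where 211 of all 16490 genes did. Rbfox3, the antigen NeuN, had 8.49 and 4.5 TPM in OSN and 0.577 and 0.225 in controls (log2 difference 2.38 ± 0.53, adjusted p = 0.0451), and was not called with a pseudocount of 0.1. Nova2, a splicing factor, had 64.1 and 37.9 against 14.9 and 11.3 TPM, and Celf5 84.8 and 24.4 against 12 and 5.69 TPM (adjusted p = 0.0508 and 0.0822, with the block 0.044 and 0.0314). Both OSN samples lay above both controls for these 3 genes. The median was 0.55 over the 24 genes of mRNA deadenylation and decay, a process that Mex3 proteins are linked to. Of these none rose (background 1.12%) and 1 fell (background 7.2%). That was Pabpc1, the cytoplasmic poly(A)-binding protein, with 156 and 252 TPM in OSN and 675 and 576 in controls (log2 difference -1.65 ± 0.32, adjusted p = 0.0347), not called with median-of-ratios scaling. Of 80 tested cytosolic ribosomal protein genes 1 fell (0 with the block, background 7.2%). Their summed TPM was 33996 and 44999 in OSN and 44022 and 46550.2 in controls.

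Of 11 tested targets of p53, 4 rose (background 1.12%) and none fell, with a median log2 difference of 1.27. The list was chosen with earlier results of these data known, and Phlda3 and Aen were among the largest rises named below. This share therefore describes the list only. Phlda3, an inhibitor of Akt, had 62 and 71.1 TPM in OSN and 3.52 and 9.46 in mCherry-negative cells (log2 difference 3.29 ± 0.52, adjusted p = 0.0255). Aen, an apoptosis-linked nuclease, had 95.7 and 112 against 17.9 and 11.5 TPM, and Bax, an effector of the mitochondrial death pathway, 221 and 285 against 80.4 and 78.9 TPM. Zmat3, an RNA-binding zinc finger protein, had 72.3 and 49.7 against 18.6 and 19.1 TPM (adjusted p = 0.0478, with the block 0.054). For each of the 4 both OSN samples lay above both controls, which a call with 2 samples a group all but requires. Bbc3 (Puma) had 59.3 and 157 against 22.3 and 35.2 TPM (adjusted p = 0.0841, with the block 0.0365). Cdkn1a, the cell cycle inhibitor p21, had 235 and 181 TPM in OSN and 100.3 and 167 in controls, and Mdm2 131 and 213 against 115 and 87.5 TPM; neither passed.

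Of 14 immediate early and dissociation genes 1 fell (2 with the block) and none rose, near the 7.2% of all genes that fell, with a median of -1.03. Zfp36, an mRNA-destabilising protein induced with this group, had 65.6 and 53.1 against 342 and 327 TPM (adjusted p = 0.0132), and Fos 359 and 422 against 851 and 588 TPM. Of 14 tested interferon-induced genes 1 fell (background 7.2%), Ifit2, with 6.08 and 7.84 against 29.3 and 31.4 TPM (adjusted p = 0.0449, with the block 0.0522). Ifit1 differed between OSN of the mice, at 1.18 and 51.5 TPM, with 15.5 and 21 TPM in controls.

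The 15 genes with the largest rise in both mice, by the naming rule, were Adar, Fam212b, Galnt9, Stag3, Phlda3, Cacnb1, Gpr85, Prkar1b, Reep2, Dach1, Aen, Ppfia3, Fcrls, Unc80 and Ddx25, with log2 differences from 2.66 to 4.16; Unc80 and Ddx25 did not pass the test (adjusted p = 0.0801 and 0.0871, with the block 0.0523 and 0.0396). Galnt9, a glycosyltransferase, had 33.5 and 31.8 TPM in OSN and 2.9 and 1.19 in controls (log2 difference 3.52 ± 0.53). Cacnb1, a voltage-gated calcium channel subunit, had 128 and 64.6 against 12.9 and 7.5 TPM, and Prkar1b, a regulatory subunit of protein kinase A, 36.1 and 59.4 against 5.37 and 4.86 TPM. Dach1, a transcription regulator, had 131 and 170.5 against 29.8 and 12.5 TPM. In these 4 the OSN of both mice were at least 4-fold above their own controls. Stag3, the meiotic cohesin subunit, had 55 and 20.6 against 4.27 and 1.05 TPM (not called with a pseudocount of 0.1), and Fam212b 74.2 and 131 against 10.1 and 4.47 TPM. Ppfia3, a presynaptic scaffold, and Reep2, which shapes the ER, rose by 2.73 and 2.95, and Gpr85, an orphan receptor of the brain, by 3.01.

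Fcrls, a marker of microglia, was also in that group, with 30.3 and 47.4 TPM in OSN and 4.28 and 5.85 in controls (log2 difference 2.70 ± 0.48, adjusted p = 0.0299). Of 15 macrophage genes none rose (2 with the block, background 1.12%) and 2 fell (background 7.2%). In OSN of both mice 4 were at least 2-fold higher (background 4.29%) and 3 at least 2-fold lower (background 15.3%). C1qc, a complement subunit of macrophages, had 43.7 and 72.8 TPM in OSN and 9.3 and 23.4 in controls (adjusted p = 0.079, with the block 0.0409), and C1qb 47.8 and 70.1 against 12.4 and 23 TPM (adjusted p = 0.0628, with the block 0.0456). C1qa and Cx3cr1 were the other 2 that were at least 2-fold higher in both mice. Lyz2 fell, with 85.7 and 126 against 485 and 441 TPM, and so did Tyrobp, with 22.4 and 37 against 80.2 and 122 TPM, though not with a pseudocount of 0.1. The macrophage genes thus parted within the list, with complement genes on the side of the OSN and Lyz2 on the side of the controls. The summed TPM of the list was 486 and 804 in OSN, and 908 and 1137 in controls. The part of macrophage RNA in the genes that rose was not tested.

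The 15 largest falls were mostly genes of bone, connective tissue and granulocytes: Col1a2, Ibsp, Col1a1, S100a9, S100a8, Mpo, Ngp, Sparc, Col3a1, Prg2, Retnlg, Elane, Camp, Mgp and the OSN gene Stoml3. Col1a1, a chain of type I collagen, had 22.4 and 35.2 TPM in OSN and 3158 and 3467 TPM in mCherry-negative cells (log2 difference -6.83 ± 0.31, adjusted p = 0.00111). Ibsp, bone sialoprotein, had 2.74 and 0.629 against 285 and 283 TPM, and Sparc, osteonectin, 10.3 and 10.2 against 787 and 854 TPM. S100a9, a subunit of neutrophil calprotectin, had 4.85 and 17.6 against 1065 and 877 TPM, and Mpo, myeloperoxidase, 0.887 and 1.05 against 219 and 125 TPM. That the groups did not overlap for any of these was a condition of the naming rule and not a result. Elane, neutrophil elastase, had 1 and 0 reads in OSN and 361 and 164 in controls. Prg2, an eosinophil granule protein, had 2 and 1 reads in OSN and 630 and 137 in controls. With OSN set to a floor of 3 reads, Elane was 81.8-fold and Prg2 118-fold lower. A count of 1 or 2 reads does not exclude more than 3, so these folds are not lower limits.

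Marker lists of other cells of the tissue were lower in OSN as well. All 10 tested bone genes, all 8 genes of the red blood cell lineage that the table held (of 14 listed), 15 of 19 granulocyte genes, 9 of 12 of connective tissue and vessels, 8 of 10 of microvillous and chemosensory cells and 7 of 12 of lymphocytes fell, where 7.2% of all genes did, and none of them rose. The median log2 differences ran from -4.45 (granulocytes) to -2.53 (lymphocytes). Some of these genes, among them Ctsg (0.845 and 0.205 TPM in OSN), passed the filter of 1 TPM only through the controls, where they were high. These counts and medians therefore describe the lists and do not support a difference. The summed granulocyte TPM was 84.1 and 89.6 in OSN, and 4311 and 3236 in controls. Ascl3, a factor of microvillous cells, had 1.6 and 0.29 against 65 and 74.3 TPM, and Coch, of the same list, 19.9 and 7.26 against 272 and 636 TPM. Both were far below the controls in each mouse. Of single markers, Vpreb1 was at 0 in OSN of mouse 1, and Elane, Cebpe, Cd3g, Nkg7 and Sp7 in OSN of mouse 2.

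In the basal, sustentacular and gland lists fewer genes passed, against a background of 7.2% lower. Of 8 horizontal basal cell genes all were at least 2-fold lower in both mice, and 1 fell (3 with the block): Krt15 had 2.3 and 0.477 against 13.9 and 17.7 TPM, while Krt5 had 2.32 and 7.12 against 17 and 125 TPM (adjusted p = 0.0853, with the block 0.0211). The basal keratins were higher in the mCherry-negative cells of mouse 2 than of mouse 1. Of 13 sustentacular genes 1 fell (3 with the block), a share near the background, Gpx6, with 3.13 and 3.57 against 39 and 171 TPM, and the summed TPM was 290.4 and 463 in OSN and 588 and 1428 in controls. Cyp2g1, an abundant enzyme of these supporting cells, had 35.3 and 35.2 against 43.4 and 82 TPM and did not pass. Of 11 gland genes 3 fell (7 with the block), among them Sox9 (2.79 and 3.12 against 25.3 and 27.5 TPM). Of 10 tested genes of ensheathing glia 1 fell (Apod), and none of 5 tested genes of respiratory ciliated cells passed. The calls of Krt15 and Apod ended with a pseudocount of 0.1 and that of Gpx6 with voom. In these bulk samples, fewer cells of a type and less RNA per cell cannot be told apart, and the part of these other cells in the differences above was not tested.

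**Figure D5:**
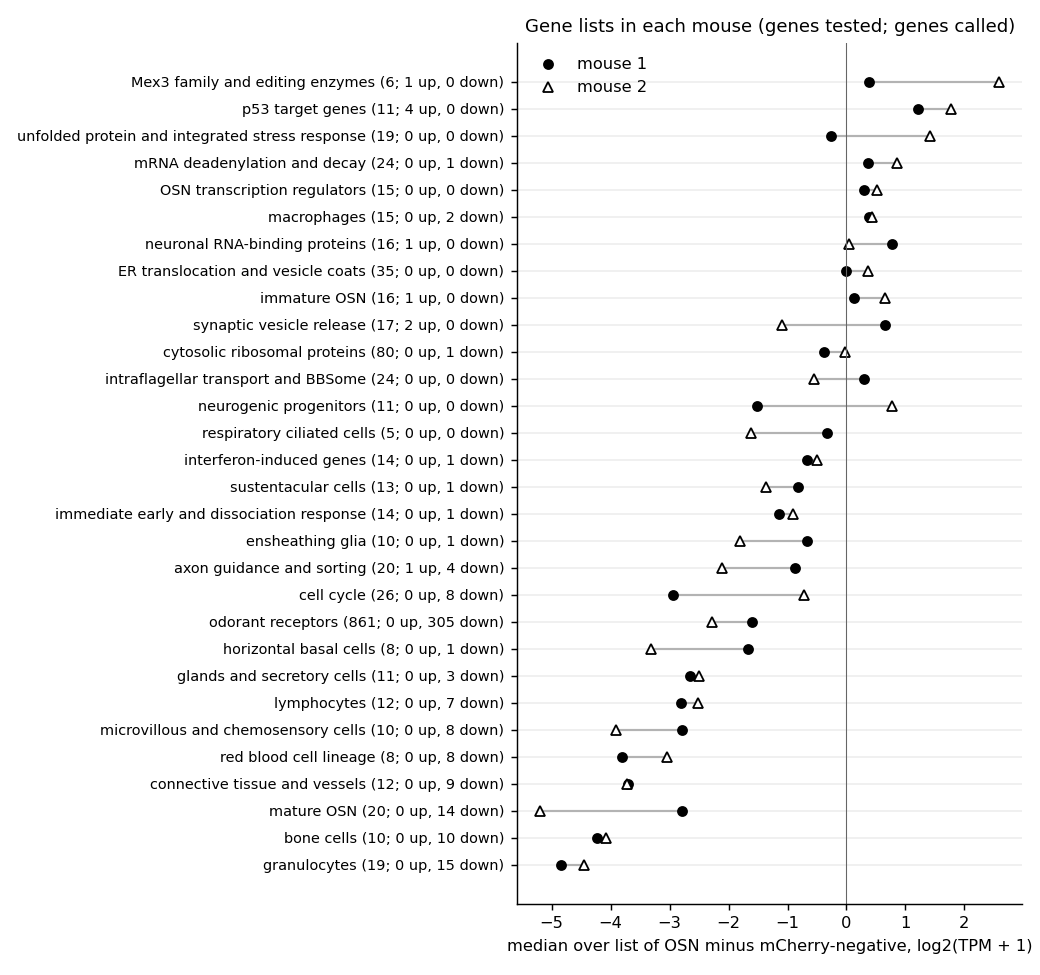
Median OSN minus mCherry-negative difference in log2(TPM + 1) over the tested genes of each of 30 lists, black circles for mouse 1 and open triangles for mouse 2, with the genes tested and called beside each name. Bone, connective tissue, granulocyte and red blood cell lists lie near -3 to -5 in both mice, the mature OSN list moves from -2.79 to -5.20, and progenitor, synaptic and stress lists lie on opposite sides of 0 in the 2 mice.

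Some genes differed in opposite directions in the 2 mice. Of 117 genes with at least 5 TPM in the higher group that were 2-fold up in 1 mouse and 2-fold down in the other, the 5 with the widest gap were Bcat2, Lzts1, Olfr464, Lsamp and Ndn. Bcat2, the mitochondrial branched-chain aminotransferase, had 2.69 and 96.8 TPM in OSN and 9.83 and 6.92 in controls, and Lzts1 8.31 and 129.7 in OSN and 25.9 and 9.71 in controls. Both were lowest in OSN of mouse 1 and highest in OSN of mouse 2. Lsamp, a neuronal adhesion protein, had 95.7 and 1.16 TPM in OSN and 5.33 and 3.6 in controls, and Ndn, the imprinted gene of necdin, 127 and 3.48 in OSN and 7.5 and 8.07 in controls. These were highest in OSN of mouse 1 and lowest in OSN of mouse 2. None of the 5 passed the test of the mean difference (adjusted p from 0.504 to 0.88), which genes chosen for opposite differences could hardly pass.

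With both drivers, the same comparison in MexHT mice gave the following values, in a table scaled separately and from libraries of another date, so that driver and date cannot be told apart and no test was made between them. Gng8 had 311, 341 and 403 TPM (lowest, median and highest of 6) in OSN with both drivers and 64.2, 96.5 and 144 TPM (of 5) in their mCherry-negative cells. Omp had 682, 1396 and 1597 TPM in those OSN and 46.9, 892 and 1431 TPM in those controls, higher in OSN in all 5 mice with both fractions, where it was lower in both mice with gg8tTA alone. Stoml3 had 342, 1172 and 1421 TPM in those OSN and 22.2, 971 and 1833 TPM in those controls. Over the 20 mature markers the median log2 difference was 0.70 with both drivers and -4.08 with gg8tTA alone, and over the 16 immature markers 1.01 and 0.14. Granulocyte genes were low in OSN with either (-6.03 and -4.45), as were cell cycle genes (-2.44 and -1.84). Phlda3 had 22.7, 39.5 and 98.3 TPM in OSN with both drivers and 7.98, 10.5 and 38.3 TPM in their controls, and Adar 377, 407 and 1198 TPM in OSN and 52.4, 63.3 and 90.5 TPM in controls.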

How the data were processed

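RNA of cells sorted from the main olfactory epithelium was made into stranded total RNA libraries (SMARTer, Pico version 2), per the labels' protocols. The authors deposited TPM values per gene and sample, in 1 table for the gg8tTA samples and another for mice with both drivers, scaled separately. FastQC, cutadapt, STAR and bedtools and the build mm10 are named in the submitters' processing notes, with no role or version; the counting program and its annotation are not given in the sources used here. Of 22945 rows, 27 with symbols turned into dates (at most 0.217% of TPM) were left out. TPM values of 22783 of 22786 genes shared by both tables (99.99%) were whole multiples of 1 read per sample and gene, within 0.02 read, which gave the read numbers and depth printed. A count of 0 allows up to 3 reads, and such floors cover counting error only. Genes with 1 to 3 reads in OSN were set to 3 reads too, which is not an upper limit for them.

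Genes averaging 1 TPM or more across the 4 samples (16490) were tested on log2(TPM + 1) with limma 3.58.1 in R 4.3.3 (mean trend, two-sided, OSN against mCherry-negative, no block), with Benjamini-Hochberg adjustment and a threshold of 0.05. This scale understates fold changes of low genes. The labels state that the mCherry-negative sample is of the same mouse, so replicate numbers pair the samples. The change from mouse 1 to mouse 2 in OSN correlated with that in mCherry-negative cells at 0.0178 over genes. With 2 mice, p-values rest on the spread of 2 samples a group. The fit with the mouse as a block keeps 1 residual degree of freedom, fewer than the fit without it. The steps were tested on simulated data first. The spread of the simulated data was fixed and not taken from these samples, so that test does not show how reliable the calls here are. Genes named were the 15 with the largest mean difference in each direction (2-fold in both mice, groups not overlapping, at least 5 TPM in the higher group, without predicted, small RNA and pseudogene rows), the 5 largest opposite differences, and list members; 1 item of a list is not reported here. Members and lists were chosen with earlier results of these data known. Alternatives covered the mouse as a block, pseudocount, filters, scaling, voom on recovered reads and leaving out each sample. Promoter windows came from RefSeq (GRCm38.p6), gene positions from GENCODE M21.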

Additional observations from a re-analysis of the deposited data

Results flagged for a closer look

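For 12 of the genes named, OSN lay below the mCherry-negative cells in both mice with gg8tTA alone and above them in all 5 mice with both drivers that had both fractions. The mean log2 differences with gg8tTA alone were -4.79 for Omp, -4.19 for Kirrel2, -3.68 for Plxna4, -3.47 for Rtp1, -3.41 for Kirrel3, -2.88 for Rtp2, -2.81 for Cntn4, -2.73 for Pcdh10, -2.34 for Ebf4, -1.45 for Snap25, -1.26 for Stmn4 and -0.091 for Mllt11. With both drivers the 5 differences ran from 0.10 to 3.83 for Omp, from 0.12 to 2.01 for Kirrel2, from 1.18 to 2.85 for Kirrel3 and from 1.00 to 1.90 for Pcdh10. Mllt11 was near 0 in both mice with gg8tTA alone (-0.17 and -0.01). The difference between the drivers was not tested, since the tables were scaled separately and library date goes with the driver. Over all genes, 9 were at least 2-fold lower in both mice with gg8tTA alone and at least 2-fold higher in all 5 others, among them Kirrel3, Pcdh10, the calcium-binding protein gene Calb2 and the potassium channel gene Kcna6 (picked after their values were seen), and 0 were odorant receptors.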

How the results depend on the processing

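Depth was 10134715 to 15056782 recovered reads, and 61 of the 1372 genes called had 10 reads or fewer in every sample. The count of 1372 genes called by limma (185 higher, 1187 lower) was 646 (67 and 579) with a pseudocount of 0.1 and 820 (111 and 709) with a filter at a mean of 5 TPM, where fewer genes were tested and 1391 genes rather than 2523 were at least 2-fold lower in both mice. With voom on the recovered reads 98 genes were called higher, and the median difference over all genes moved by -0.14. With the mouse as a block 1529 genes were called, of which 1304 were called without it; beyond the calls given beside their genes, the block ended or added no call of a gene named with values, and it moved the other list counts by less than 1.5 times (mature OSN from 14 to 19, cell cycle from 8 to 9, granulocytes from 15 to 16 and receptors from 305 to 325). Requiring over 10 reads in at least 1 sample, a filter chosen after seeing the data, gave 1835. Leaving out each sample in turn, which leaves 1 residual degree of freedom and takes the lone sample to vary like the other group, left 0 to 0 genes called in all, higher and lower; from 1 mouse alone, 1762 to 3183 genes were at least 2-fold higher and 3226 to 4541 lower. Calls of Sema3a, Unc13a, Zmat3, Tyrobp, Pcna, Ano2 and Stx1a were lost under 3 or more alternatives with all samples, those of Mki67, Top2a, Kirrel3, Stag3, Pde1c, Krt15, Apod, Rbfox3, Aurkb, Ccnb2, Ifit2, Sp7 and Vpreb1 at least with a pseudocount of 0.1, those of Gpx6 and Mir1905 with voom and that of Pabpc1 with median-of-ratios scaling; the cause was not tested. The differences of Mcm7 (0.07) turned to -0.0084 with median-of-ratios scaling and -0.038 with voom, and that of Olfr877 (0.18) to -0.41 with a pseudocount of 0.1 and -0.85 with voom. Signs also turned when 1 sample was left out, with a range of -0.075 to 1.46 for Atf4, -1.33 to 3.40 for Bcat2, -1.94 to 0.93 for Ddit3, -0.69 to 0.38 for Ebf1, -2.55 to 0.28 for Gap43, -3.13 to 1.46 for Ifit1, -1.32 to 4.16 for Lsamp, -0.87 to 2.94 for Lzts1, -0.12 to 1.08 for Mcm2, -0.67 to 0.81 for Mcm7, -0.30 to 0.12 for Mllt11, -0.97 to 3.86 for Ndn, -0.84 to 2.17 for Neurod1, -1.07 to 0.92 for Neurog1, -2.56 to 1.90 for Olfr464, -2.14 to 2.51 for Olfr877, -2.51 to 0.60 for Sox2 and -1.48 to 1.67 for Trib3. None of these genes was called.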

Other observations

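Some genes that parted OSN of mouse 2 from OSN of mouse 1 with gg8tTA alone also differed among the 6 OSN samples with both drivers, in the table scaled separately. Bcat2 had 34.7 and 16.2 TPM in replicates 5 and 6 and 1.31 to 2.44 in the other 4, and Lzts1 66.5 and 35.6 against 1.81 to 4.86 TPM. Mex3a had 1271 and 679 against 328 to 359 TPM, Adar 1198 and 742 against 377 to 422, and Neurod1 341 and 158 against 36.3 to 74.3. The Atf4 target Trib3 (110.1 and 54.9 against 19.0 to 26.1 TPM) followed the same order. Lower in replicates 5 and 6 were Dcx (60.4 and 68.8 against 183 to 200.3 TPM), Lsamp (6.78 and 9.39 against 31.9 to 55.5), Ndn (8.37 and 9.80 against 48.6 to 92.1) and Olfr464 (9.82 and 8.24 against 24.0 to 85.7). For these 10 genes the pair differed from the other 4 in the direction in which OSN of mouse 2 differed from OSN of mouse 1. Omp, lower in OSN of mouse 2 as well, did not part them, with 682 and 1268 against 1266 to 1597 TPM. The labels give these 6 samples 1 genotype, the genes were picked after their values were seen, and no test was made.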
